A study of Mus musculus with 2 samples.

Results

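Arg1-high macrophages were cells of the mouse heart that carried many transcripts of Arg1 24 hours after injection of isoproterenol (ISO). They were selected on measured counts. A cell barcode of the ISO library was kept when it had above 500 and below 6000 genes and when mitochondrial genes made up under 25% of its unique molecular identifiers (UMIs, which tag single RNA molecules). It was counted as Arg1-high when it held at least 5 Arg1 UMIs and at least 10 UMIs of Lyz2, the lysozyme gene of myeloid cells. It also had to hold at most 1 UMI of Gata3, Il1rl1, Calca, and Hlf together, at most 2 of Cd79a, Cd79b, and Ms4a1, and at most 1 of Cd3d and Cd3e, which mark innate lymphoid and related cells, B cells, and T cells. S100a8 and S100a9, which mark neutrophils, had to make up under 1% of its UMIs. In the ISO library, 964 of 5437 kept cells met these limits, a share of 17.7% (exact Clopper-Pearson 95% interval, 16.7% to 18.8%). They were 25.6% of the 3767 cells within the same limits at any level of Arg1.

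The cells came from a study of a TTS-like (takotsubo syndrome-like) cardiomyopathy in female C57BL6 mice aged 8 to 16 weeks. The TTS group received 200 mg/kg ISO intraperitoneally and the Control group received vehicle. The dose stands in the treatment notes of both samples, and Control was identified by its title. After 24 hours, live CD45+ cells were sorted from digested hearts, the cells of 3 hearts were pooled, and 1 droplet library per group was sequenced with a 10x Genomics 3′ kit. The deposited tables hold 5927 barcodes with 47382455 UMIs for Control and 5514 barcodes with 58495112 UMIs for TTS, of which 5641 and 5437 were kept. As each group is 1 library, no difference between the groups could be tested, and all intervals cover counting error within a library only.

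Arginase 1 splits arginine into ornithine and urea. In macrophages it draws on the same substrate as the inducible nitric oxide synthase Nos2, and its product ornithine feeds the synthesis of polyamines and proline. Macrophages express Arg1 in several settings, among them IL-4 signaling, cAMP, and hypoxia, and high Arg1 is a common feature of monocyte-derived macrophages in injured tissue.

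Arg1 (chr10:24915207-24927470, GRCm38) was found in these cells in the ISO library and hardly in Control. Among cells within the other limits, 2021 of 3767 ISO cells (53.7%) had no Arg1 UMI, 782 (20.8%) had 1 to 4, 270 (7.17%) had 5 to 9, 331 (8.79%) had 10 to 24, and 363 (9.64%) had 25 or more. In Control, 1058 of 1064 such cells (99.4%) had none and 6 (0.564%) had 1 to 4. No Control cell met the rule. Taking 3 cells as the limit that a count of 0 allows, the share could be up to 0.282% of those 1064 cells or 0.0532% of all 5641 kept cells, and the exact Clopper-Pearson upper bounds were 0.346% and 0.0654%. Within the Arg1-high cells, Arg1 ranged from 5 to 217 UMIs with a median of 17, and 19 cells held at least 100. The summed level was 1903 CPM (Arg1 UMIs scaled to 1000000 UMIs of the summed cells).

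**Figure D1:**
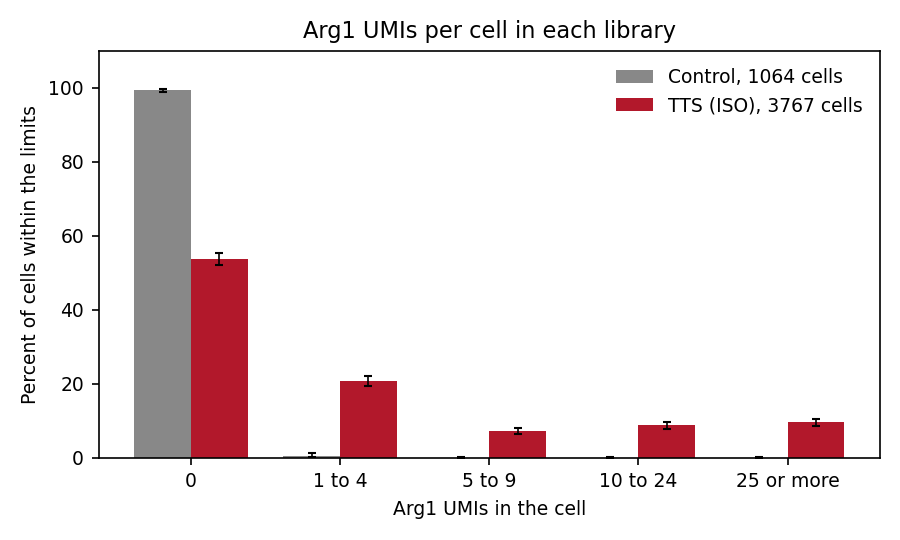
Percent of cells within the limits (vertical axis) by the number of Arg1 UMIs in the cell (horizontal axis) in Control (gray, 1064 cells) and TTS (red, 3767 cells), with exact Clopper-Pearson 95% intervals. The Control bars end at 1 to 4 UMIs, whereas 9.64% of TTS cells hold 25 or more.

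Most but not all Arg1 transcripts of the ISO library lay in these cells. They held 24329 of its 35234 Arg1 UMIs (69.0%). Another 338 ISO cells with at least 5 Arg1 UMIs failed a limit: 108 exceeded the limit on innate lymphoid genes, 35 the B cell limit, 45 the T cell limit, and 128 the S100a8 and S100a9 limit, and 22 had too little Lyz2. Each cell is counted under the first limit it failed, in this order. In Control, 735 of 785 Arg1 UMIs (93.6%) lay in cells over the limit on innate lymphoid genes.

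The label of macrophages was described with 10 markers. All 10 were found in the summed Arg1-high cells. Markers of other cell types were found there too, so presence alone does not test the label. The scavenger receptor gene Cd68 was at 579 CPM and in 97.6% of cells, and the CSF-1 receptor gene Csf1r was at 362 CPM. The LPS co-receptor gene Cd14 was at 3856 CPM, and Emr1, which encodes F4/80, at 115 CPM. The Arg1-high cells also carried Ccr2, the receptor for CCL2 on inflammatory monocytes, at 784 CPM. At least 2 Ccr2 UMIs were found in 906 of 964 cells (94.0%). The complement genes C1qa, C1qb, and C1qc, which mark mature macrophages, summed to at least 4 UMIs in 422 cells (43.8%), to 1 to 3 in 125, and to 0 in 417. The marker set of resident cells, Timd4, Lyve1, and Folr2, reached 2 UMIs in 68 cells (7.05%). Of the 10 macrophage markers, 1 was at least 2-fold lower than in the C1q+ cells described next (Apoe, 3363 against 7256 CPM), a list median of −0.32 on the log2 scale.

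Arg1-negative cells, which are cells without an Arg1 UMI, were used for comparison within the ISO library. The first group was the 707 Arg1-negative cells with at least 4 C1q UMIs (C1q+ cells below), and the second was the 1608 Arg1-negative cells with at least 2 Ccr2 UMIs (Ccr2+ cells below), both within the same limits. Of these, 458 cells belonged to both groups. Since 64.8% of the C1q+ cells had at least 2 Ccr2 UMIs against 94.0% of the Arg1-high cells, and 26.9% against 7.05% had the resident markers, the first comparison sets cells of unequal makeup side by side. The second does so as well, as 28.5% of the Ccr2+ cells had at least 4 C1q UMIs against 43.8% of the Arg1-high cells. Median depth was 10924.5 UMIs in Arg1-high, 8008 in C1q+, and 7900.5 in Ccr2+ cells. A minimum of 5 Arg1 UMIs favors deep cells, and depth is given below for several results that moved with it. The 893 Control cells with at least 4 C1q UMIs and no Arg1 (median, 6810 UMIs) served as the vehicle-treated background. They were not a baseline of like cells. The resident markers were in 51.5% of them, and 24.5% had a Ccr2 UMI against 97.2% of the Arg1-high cells.

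All ratios are log2 ratios of summed CPM, Arg1-high over comparison cells, with 0.5 UMI added to each side and an exact binomial 95% interval. The cells were chosen on their own counts, so the ratios describe these cells and no test was made. The Arg1-high cells had 147 of 11590 compared genes at least 2-fold above the C1q+ cells, a background of 1.27%, and 816 at least 2-fold below, 7.04%. Against the Ccr2+ cells these were 213 of 12039 genes (1.77%) and 329 genes (2.73%). The median gene had a log2 ratio of −0.14 against C1q+ and −0.03 against Ccr2+ cells. Many of the genes above the C1q+ cells were rare: with at least 100 UMIs required, 64 of 8662 genes (0.739%) remained above and 254 (2.93%) below.

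The genes that name these cells besides Arg1 were Spp1, Inhba, Timp1, Slpi, and Vegfa, of which 4 kept a ratio well above 0 in both comparisons. Spp1 encodes osteopontin, a secreted adhesion protein. It was at 11300 CPM in Arg1-high, 2885 in C1q+, 2402 in Ccr2+, and 11.7 in Control cells, with log2 ratios of 1.97 (1.95 to 1.99) and 2.23. Per cell, Spp1 ran from 0 to 121020 CPM with a median of 6133 in Arg1-high cells, against a median of 127 in C1q+ and 165 in Ccr2+ cells, and the ranges overlapped.

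Inhba encodes the subunit of activin A, a ligand of the TGF-β family. It was at 118 CPM in Arg1-high, 33.7 in C1q+, 57.7 in Ccr2+, and 0.964 in Control cells (log2 ratios, 1.80 and 1.03). Only 29.6% of Arg1-high cells had an Inhba UMI, and the 96 highest cells held 80.1% of its UMIs, so its level rested on a minority of cells. Timp1, an inhibitor of matrix metalloproteinases, was at 246, 75.9, 125, and 2.07 CPM in the same order (log2 ratios, 1.70 and 0.98). Vegfa, the angiogenic growth factor gene, was at 159, 78.2, 93.1, and 10.5 CPM (log2 ratios, 1.02 and 0.77).

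Slpi encodes a secreted inhibitor of neutrophil proteases and differed between the comparisons. Its level of 681 CPM was above the 332 CPM of C1q+ cells (log2 ratio, 1.04) but was 671 CPM in Ccr2+ cells, with a log2 ratio of 0.02 (−0.02 to 0.06). The summed level of Slpi therefore did not set Arg1-high cells apart from other Ccr2+ cells of the same heart pool. Per cell, the Slpi median was 260 CPM in Arg1-high and 169 CPM in Ccr2+ cells.

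**Figure D2:**
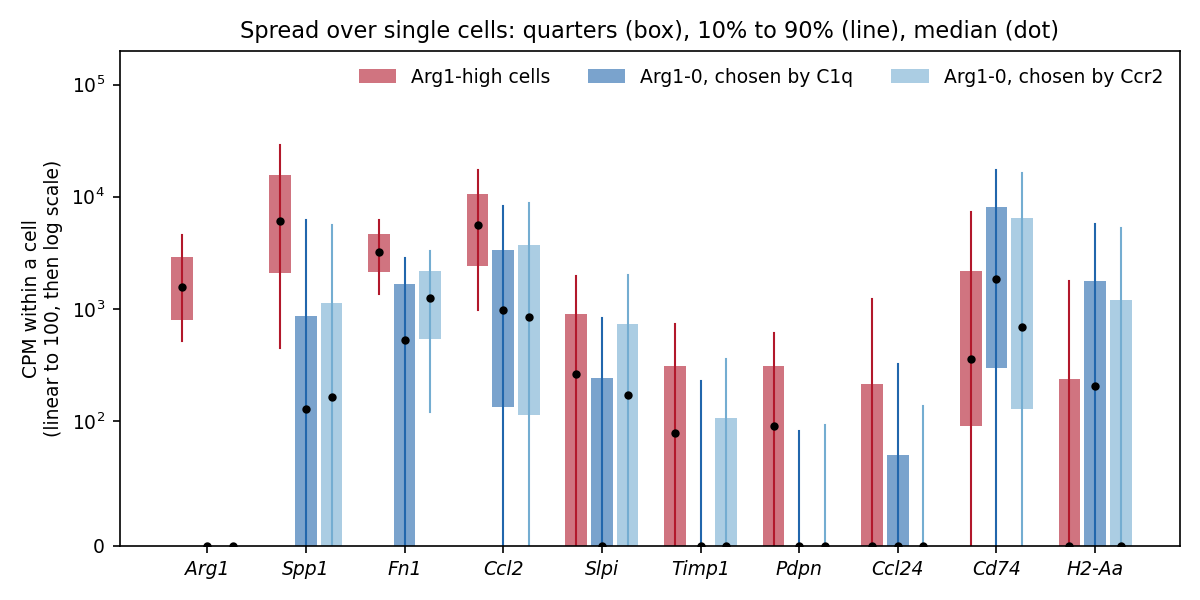
CPM within single cells (vertical axis, linear to 100 and logarithmic above) for 10 genes in 964 Arg1-high cells (red), 707 C1q+ (dark blue), and 1608 Ccr2+ Arg1-negative cells (light blue), with boxes from the lower to the upper quartile, lines from 10% to 90%, and dots at medians. The Fn1 box of Arg1-high cells (2124 to 4605 CPM) lies above that of C1q+ cells (0 to 1649 CPM), whereas the Slpi boxes overlap, and Arg1 is 0 in the comparison cells by choice.

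Detection was compared after every cell was thinned to 2000 UMIs, so that depth could not set it. Spp1 was then found in 91.0% of Arg1-high, 37.2% of C1q+, 42.9% of Ccr2+, and 1.6% of Control cells. In 84 B, T, and NK cells of the ISO library (median, 3657.5 UMIs), taken as a reference for free RNA, Spp1 was found in 17.9% and Arg1 in 5.95%. Fn1 was found in 97.3%, 53.9%, and 78.2% of the macrophage groups against 9.52% of those lymphocytes. In the ISO macrophage groups, these shares were above those of the lymphocytes. How far the lymphocyte shares reflect free RNA or their own transcripts was not tested. Of the macrophage markers, Cd68 was then found in 63.6% of Arg1-high, 68.2% of C1q+, 64.6% of Ccr2+, and 58.1% of Control cells. Emr1 was found in 19.1%, 29.7%, 19.3%, and 57.0% in the same order. For the Control shares, 18 cells with fewer UMIs were left out.

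The rarer label genes were in the same order after thinning. Timp1 was found in 28.4% of Arg1-high, 9.62% of C1q+, and 13.2% of Ccr2+ cells, Vegfa in 21.3%, 11.5%, and 12.9%, and Inhba in 11.7%, 3.96%, and 6.59%. In the lymphocytes, Timp1 and Inhba were in 0 of 84 cells (exact upper bound, 4.30%) and Vegfa in 7.14% (2.67% to 14.9%). The Vegfa shares of both comparison groups and the Inhba share of C1q+ cells were not separable from these lymphocyte shares. Slpi was found in 46.3%, 24.9%, and 40.8%. All 5 label genes other than Arg1 were found in 7 of 964 Arg1-high and 1 of 707 C1q+ cells. None of the 5 was found in 33 Arg1-high (3.42%) and 289 C1q+ cells (40.9%).

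Pdpn, which encodes the membrane glycoprotein podoplanin, had the highest ratio among genes of at least 100 CPM. It was at 191 CPM in Arg1-high, 29.3 in C1q+, 31.7 in Ccr2+, and 1.65 in Control cells. The log2 ratios were 2.70 (2.49 to 2.92) and 2.59 (2.44 to 2.74), so that Pdpn hardly depended on the comparison. After thinning, Pdpn was found in 26.8% of Arg1-high, 3.39% of C1q+, and 4.29% of Ccr2+ cells. It was in 0 of 84 lymphocytes, whose upper bound of 4.30% does not separate the shares of the comparison cells from the lymphocyte share. Unthinned, Pdpn was found in 58.9%, 12.9%, and 12.3% of the macrophage groups.

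The sequences before the start sites of 3 of these genes, Pdpn, Timp1, and Inhba, are shown. They had the highest ratios of the C1q comparison among genes of at least 100 CPM with a RefSeq promoter. Spp1 was left out because several start sites are listed for it. Each sequence is the 250 bases before the start (RefSeq, GRCm38.p6), read 5′ to 3′ on the strand of the gene. Capitals mark matches on either strand to ACGTG (the core of the HIF element), TGACG (the core of the cAMP response element), or TTGCNNAA (a C/EBP motif). The Pdpn window is chr4:143299565-143299814 on the minus strand and its capitals hold the HIF core on both strands. The Timp1 window is chrX:20869916-20870165 on the plus strand and holds the cAMP element core overlapping a HIF core. The Inhba window is chr13:16011601-16011850 on the plus strand, inside the annotated gene, and holds the C/EBP motif.
Pdpn: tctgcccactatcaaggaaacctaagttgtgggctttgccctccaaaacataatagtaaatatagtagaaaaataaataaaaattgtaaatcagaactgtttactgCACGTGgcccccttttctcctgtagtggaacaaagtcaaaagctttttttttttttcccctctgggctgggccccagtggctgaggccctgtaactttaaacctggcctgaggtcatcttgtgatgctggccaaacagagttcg
Timp1: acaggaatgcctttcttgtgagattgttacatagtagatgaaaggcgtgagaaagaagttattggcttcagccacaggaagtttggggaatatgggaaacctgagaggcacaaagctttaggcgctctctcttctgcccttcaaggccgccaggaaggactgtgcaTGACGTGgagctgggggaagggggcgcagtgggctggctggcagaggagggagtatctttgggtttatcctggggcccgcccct
Inhba: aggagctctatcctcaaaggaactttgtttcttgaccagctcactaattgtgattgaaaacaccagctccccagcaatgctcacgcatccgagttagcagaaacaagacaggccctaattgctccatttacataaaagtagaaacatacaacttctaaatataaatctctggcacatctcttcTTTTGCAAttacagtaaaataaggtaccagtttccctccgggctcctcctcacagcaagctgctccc
Of all 27025 genes with a RefSeq promoter, 18.5% hold the HIF core in any window of this length and 19.8% the cAMP element core. The C/EBP motif is in 10.8% of these genes, and the AP-1 motif TGANTCA, also searched, in 7.82%. These shares cover all genes, whether or not the heart cells express them. Shares over the genes above the C1q+ cells are void, as only 72.0% of the 25 highest and 65.3% of all 147 had a promoter in the table, and Arg1, Fn1, Ccl2, Ccl7, and Ccl24 were among those without one. A match is a description of letters and shows no binding.

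Genes for matrix proteins and their receptors stood above the background of both comparisons. Of 28 compared genes of this list, 6 were at least 2-fold higher and 2 lower than in C1q+ cells, and 3 higher and 1 lower than in Ccr2+ cells, with median log2 ratios of 0.40 and 0.37. Fn1, which encodes fibronectin, was at 3432 CPM in Arg1-high, 1150 in C1q+, 1505 in Ccr2+, and 31.1 in Control cells (log2 ratios, 1.58 and 1.19). The lowest, the median, and the highest Arg1-high cell had 0, 3205, and 16953 CPM of Fn1, against a median of 531 CPM in C1q+ cells. The proteoglycan gene Vcan was at 474, 232, and 415 CPM in the ISO groups, and the thrombospondin gene Thbs1 at 2277, 1221, and 1888 CPM, so both were close to the Ccr2+ level. Timp2, a second metalloproteinase inhibitor, was lower than in C1q+ cells, at 39.5 against 215 CPM (log2 ratio, −2.45).

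Of the lists in the plot of list medians, the chemokine genes had the highest median against Ccr2+ cells. Of 21 genes, 9 were at least 2-fold higher and 2 lower (median log2 ratio, 0.89), and against C1q+ cells 4 of 20 were higher and 2 lower (median, 0.42). Ccl2, the main ligand of CCR2, was at 7227 CPM in Arg1-high, 2993 in C1q+, 2959 in Ccr2+, and 868 in Control cells (log2 ratios, 1.27 and 1.29). Ccl7, a further CCR2 ligand, was at 1768, 727, 516, and 363 CPM (log2 ratios, 1.28 and 1.78). Ccl12, from the same cluster on chromosome 11, was at 530 CPM against 154 in Ccr2+ cells (log2 ratio, 1.78), and was 291 CPM in C1q+ and 308 CPM in Control cells.

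Chemokines that attract other cells were higher as well. Ccl24, an eosinophil attractant through CCR3, was at 414, 127, 91.8, and 170 CPM (log2 ratios, 1.70 and 2.17), and its 96 highest cells held 76.7% of its UMIs. The neutrophil attractant gene Cxcl3 was at 508, 165, 143, and 8.82 CPM (log2 ratios, 1.62 and 1.83), and Cxcl1 at 1249 CPM was 1.11 log2 above Ccr2+ cells but 0.68 above C1q+ cells. On the other side, Ccl17, a ligand of CCR4 found in dendritic cells, was at 42.7 CPM against 85 and 109 CPM (log2 ratios, −0.99 and −1.35). Pf4 was lower than in C1q+ cells (log2 ratio, −1.37) and higher than in Ccr2+ cells (0.95).

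**Figure D3:**
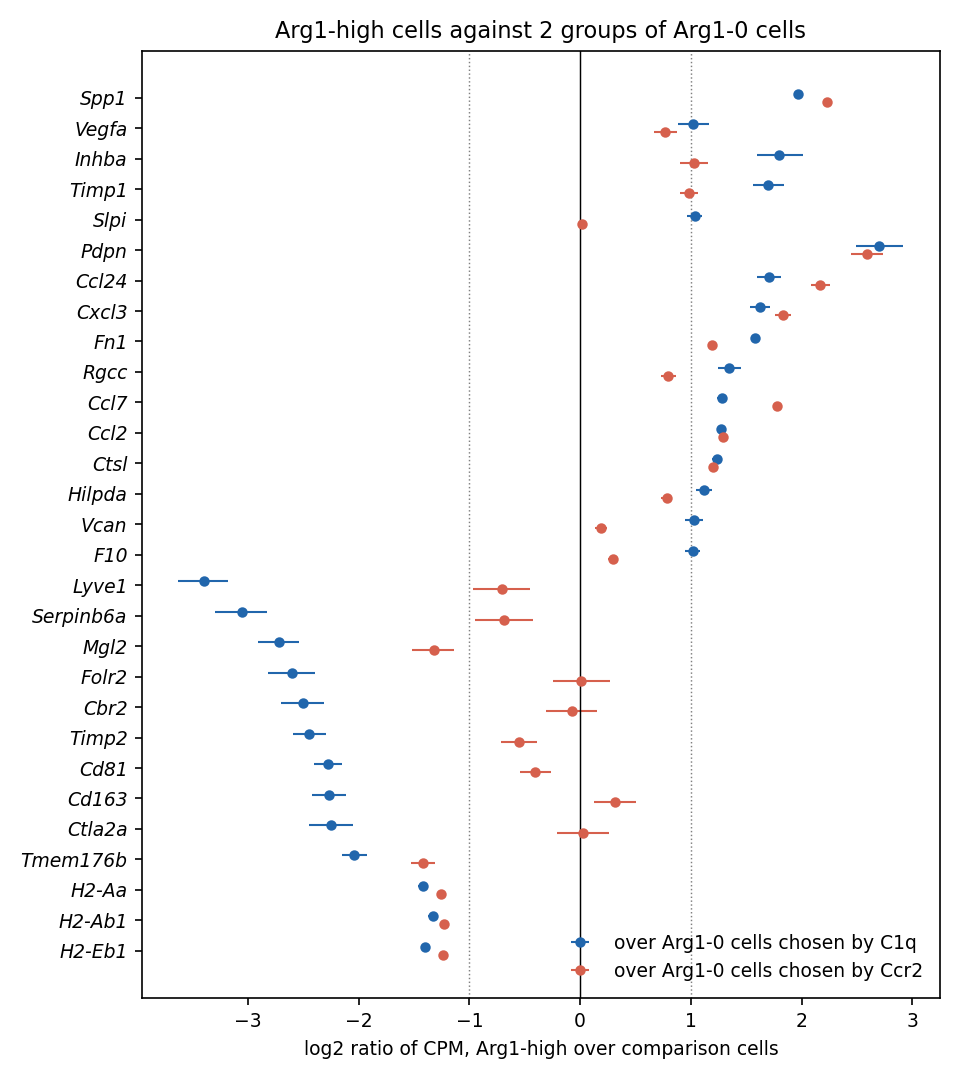
Log2 ratio of summed CPM (horizontal axis) of Arg1-high cells over C1q+ (blue) and over Ccr2+ Arg1-negative cells (red) for 29 named genes, with exact binomial 95% intervals and dotted lines at 2-fold. Spp1, Inhba, Pdpn, Ccl24, Cxcl3, Fn1, Ccl7, Ccl2, and Ctsl lie beyond 2-fold above in both comparisons and H2-Aa, H2-Ab1, H2-Eb1, Mgl2, and Tmem176b beyond 2-fold below in both, whereas Folr2, Cbr2, Cd163, and Ctla2a are low only against C1q+ cells.

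The growth factor list was mixed. Of 19 genes, 3 were at least 2-fold higher and 6 lower than in C1q+ cells, and 3 higher and 0 lower than in Ccr2+ cells (median log2 ratios, 0.17 and 0.55). The median against C1q+ cells moved with depth, to −0.04 at 5000 to 15000 UMIs and −0.02 with both groups under 10000 UMIs. Besides Inhba and Vegfa, the EGF receptor ligand gene Ereg was at 11.5 CPM against 0.605 and 0.626 CPM, and its relative Areg at 474, 251, and 270 CPM. Igf1, a growth factor gene of resident macrophages, was at 10.1 CPM against 64.4 in C1q+ and 223 in Control cells. The stress cytokine gene Gdf15 was at 65.5 CPM against 167 in C1q+ cells (log2 ratio, −1.35) and 72 in Ccr2+ cells.

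Of the genes that handle arginine, Slc7a2 stood apart. It encodes a cationic amino acid transporter that carries arginine into the cell and was at 27.1 CPM in Arg1-high, 6.8 in C1q+, 11.3 in Ccr2+, and 1.38 in Control cells (log2 ratios, 1.98 and 1.26). Without Arg1, which the rule used, 1 of 18 genes of arginine and polyamine metabolism was at least 2-fold higher than in C1q+ cells and 0 lower (median log2 ratio, 0.09), and 2 of 19 were higher than in Ccr2+ cells (median, 0.01). The second was Nos2, with only 17 UMIs in 964 cells (1.33 CPM), found in 0.726% of the cells. Odc1, the ornithine decarboxylase that starts polyamine synthesis, was at 70.9 CPM against 46.7 and 45.5 CPM (log2 ratios, 0.60 and 0.64). Arg2, the mitochondrial arginase gene, was at 2.35 CPM against 3.78 and 3.69 CPM.

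Hypoxia response and glycolysis genes were shifted up as lists by less than 2-fold. The median log2 ratio of 24 hypoxia genes was 0.60 against C1q+ and 0.42 against Ccr2+ cells, with 3 and 2 genes at least 2-fold higher and 0 lower. Hif1a itself was at 346 CPM in Arg1-high, 188 in C1q+, 253 in Ccr2+, and 56.4 in Control cells (log2 ratios, 0.88 and 0.45). For the 20 glycolysis genes the medians were 0.58 and 0.42, with 1 gene above 2-fold against C1q+ cells, Pgam1, at a level of only 3.44 CPM and with near-identical copies in the genome. Better covered members were Tpi1 (triose phosphate isomerase) at 631, 329, and 362 CPM and Ldha (lactate dehydrogenase) at 1053, 638, and 761 CPM. The lipid droplet gene Hilpda was at 620, 285, and 361 CPM (log2 ratios, 1.12 and 0.78).

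ISO acts through cAMP, and most genes of the cAMP signaling list were near the level of the comparison cells. Adrb1, which encodes the β1-adrenergic receptor, had 6 UMIs in all 964 Arg1-high cells (0.469 CPM) against 4.38 CPM in C1q+ cells. Pde4d, which encodes a phosphodiesterase that degrades cAMP, was the 1 gene of this list of 11 at least 2-fold higher in both comparisons, at 75.8, 16.2, 18.7, and 13.2 CPM (log2 ratios, 2.22 and 2.02). Pde4b was at 254, 229, and 255 CPM and the cAMP-responsive repressor gene Crem at 76.9, 72.7, and 82.4 CPM. The list's median log2 ratios were −0.02 and −0.01.

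Coagulation and lysosome genes held a few strongly shifted members. F7, which encodes coagulation factor VII, was at 37.6, 9.67, and 9.74 CPM (log2 ratio, 1.95 in both comparisons). F10, the factor X gene, was at 669, 331, and 544 CPM. Among 15 genes of this list, 3 and 2 were at least 2-fold higher and 0 lower. The cathepsin gene Ctsl was at 1621, 689, and 703 CPM (log2 ratios, 1.23 and 1.20) and Ctsd at 1386, 743, and 677 CPM, whereas the 18 lysosome genes had medians of −0.04 and 0.04.

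MHC class II genes were lower in Arg1-high cells in both comparisons. Of 10 compared genes, 7 were at least 2-fold below C1q+ cells and 8 below Ccr2+ cells, with 0 above, and the median log2 ratios were −1.31 and −1.18. H2-Aa, an antigen-presenting chain, was at 663 CPM in Arg1-high, 1778 in C1q+, 1589 in Ccr2+, and 6064 in Control cells (log2 ratios, −1.42 and −1.26). Cd74, the invariant chain, was at 2626, 6051, 5370, and 18784 CPM (−1.20 and −1.03), and Ciita, the transactivator of these genes, at 8.21, 20, and 19.6 CPM. Per cell, the median of H2-Aa was 0 in Arg1-high cells (highest cell, 7443 CPM) and 205 CPM in C1q+ cells (highest, 17922 CPM), and 96 Arg1-high cells held 77.1% of its UMIs.

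Depth and other cell types moved with the MHC class II level. Within the Arg1-high cells, H2-Aa was at 216 CPM in 404 cells under 10000 UMIs, 687 CPM in 407 cells of 10000 to 20000 UMIs, and 981 CPM in 153 deeper cells. Cd209a, a dendritic cell gene, was at 3.52, 25.8, and 43.7 CPM in the same order. The 7 dendritic cell markers summed to 53.9 CPM in Arg1-high, 128 in C1q+, 124 in Ccr2+, and 110 in Control cells. Tmem176b, a gene of dendritic cells and macrophages that overlaps Tmem176a, was at 76, 312, and 203 CPM in the ISO groups (−2.04 and −1.42). With both groups held under 10000 UMIs, the MHC class II median was −1.94, and the part of dendritic cell transcripts in it was not tested.

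Genes of resident macrophages were lower against C1q+ cells and near the background against Ccr2+ cells. Of 19 genes, 14 were at least 2-fold below C1q+ cells and 0 above (median log2 ratio, −2.10), but only 1 was below and 2 above Ccr2+ cells (median, −0.08). The median against C1q+ cells moved with depth, to −3.21 at 5000 to 15000 UMIs and −4.31 with both groups under 10000 UMIs. Lyve1, the hyaluronan receptor gene of resident vascular macrophages, was at 15.5 CPM in Arg1-high, 164 in C1q+, 25.3 in Ccr2+, and 319 in Control cells (log2 ratios, −3.40 and −0.71). Folr2, a folate receptor gene, was at 19.1, 116, 18.9, and 385 CPM, and the hemoglobin scavenger receptor gene Cd163 at 38.1, 184, 30.6, and 345 CPM. The mannose receptor gene Mrc1 was at 246, 340, 110, and 933 CPM, lower than C1q+ cells (−0.47) and higher than Ccr2+ cells (1.16).

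Monocyte genes gave the opposite picture. Against C1q+ cells, 2 of 21 were at least 2-fold higher and 1 lower, but against Ccr2+ cells 0 of 20 were higher and 5 lower (median log2 ratio, −0.27). Ly6c2, a marker of inflammatory monocytes, was at 155, 150, and 345 CPM in Arg1-high, C1q+, and Ccr2+ cells (0.04 and −1.16). Plac8 was at 568, 601, and 1165 CPM (−0.08 and −1.04), and the haptoglobin gene Hp at 262, 213, and 551 CPM (0.30 and −1.07). Ifitm6 was lowest, at 67.3 against 262 CPM in Ccr2+ cells (−1.96). These 4 monocyte genes were at least 2-fold below Ccr2+ cells. The Ccr2+ cells were chosen on a gene of this list, and the part of that choice in these ratios was not tested. With at least 4 C1q and at least 2 Ccr2 UMIs required in both groups, the list median was −0.18, with Ccr2 itself included.

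To match both features, 400 Arg1-high cells with at least 4 C1q and at least 2 Ccr2 UMIs were compared with the 458 Arg1-negative cells that met both minimums. This comparison was added after the data were seen, and the median log2 ratio of the resident list was still −0.58. The main differences stayed in direction. The log2 ratio was 1.75 (1.73 to 1.78) for Spp1, 2.37 (2.12 to 2.62) for Pdpn, 1.50 for Inhba, 1.32 for Timp1, 1.19 for Fn1, 1.12 for Ccl2, 1.67 for Ccl24, 1.81 for Pde4d, 0.70 for Vegfa, and 0.45 for Slpi. H2-Aa was at 721 against 1984 CPM (−1.46, −1.51 to −1.41) and Tmem176b at 96.3 against 285 CPM (−1.57). Lyve1 was at 29.1 against 72.6 CPM (−1.32), whereas Mrc1 was now slightly higher, at 304 against 225 CPM (0.44). Median depth was 14639 UMIs against 9245 in this pair.

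Genes linked to alternative activation did not follow Arg1 as a group. Of 19 genes, 1 was at least 2-fold higher and 3 lower than in C1q+ cells, and 2 higher and 3 lower than in Ccr2+ cells (median log2 ratios, −0.10 and 0.12). Ccl24 was the high member of both comparisons. Retnla, another gene of IL-4-activated macrophages, was at 4.62 CPM in Arg1-high cells against 7.41, 4.11, and 300 CPM in C1q+, Ccr2+, and Control cells. Chi3l3, which encodes the lectin Ym1, was at 3046, 1857, 4136, and 36 CPM, and the IL-4 receptor gene Il4ra at 184, 133, 133, and 122 CPM.

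The summed level of the cytokine list was alike in the ISO groups and lower in Control. It was 16766 CPM in Arg1-high, 14026 in C1q+, 16282 in Ccr2+, and 5612 in Control cells. In each group, most of this sum was Il1b. Of 17 cytokine genes compared with C1q+ cells, 0 passed 2-fold in either direction (median log2 ratio, 0.24). Against Ccr2+ cells 2 of 18 were higher, one of them Il12b, whose 89 UMIs in Arg1-high cells came from 0.21% of them. Il1b was at 11973 CPM in Arg1-high, 10145 in C1q+, 12136 in Ccr2+, and 3886 in Control cells, and Tnf at 1641, 1360, 1338, and 631 CPM. The IL-1 receptor antagonist gene Il1rn was at 584, 376, and 407 CPM (0.64 and 0.52).

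None of 37 transcription factor genes passed 2-fold in either comparison (medians, −0.07 and 0.05), with Cebpb at 2786, 2227, and 2629 CPM. Of 23 interferon response genes, 1 was higher than in C1q+ cells and 0 than in Ccr2+ cells (medians, −0.05 and −0.25). Cell cycle genes were lower, with 6 of 16 at least 2-fold below C1q+ and 1 of 17 below Ccr2+ cells (medians, −0.72 and −0.35). Lipid handling genes had medians of 0.18 and 0.59, with 3 of 20 at least 2-fold above Ccr2+ cells, among them the cholesterol exporter gene Abca1 at 77.1 against 32 CPM (log2 ratio, 1.27). The median log2 ratios were −0.07 and 0.13 for antioxidant genes, −0.15 and 0.35 for iron and heme genes, −0.14 and 0.21 for complement genes, −0.42 and 0.09 for efferocytosis genes (with the scavenger receptor gene Marco at 0 in Arg1-high cells), −0.38 and −0.21 for heat shock genes, and 0.38 and −0.12 for acute-phase genes. With both groups under 10000 UMIs, the acute-phase median against C1q+ cells was 0.03.

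**Figure D4:**
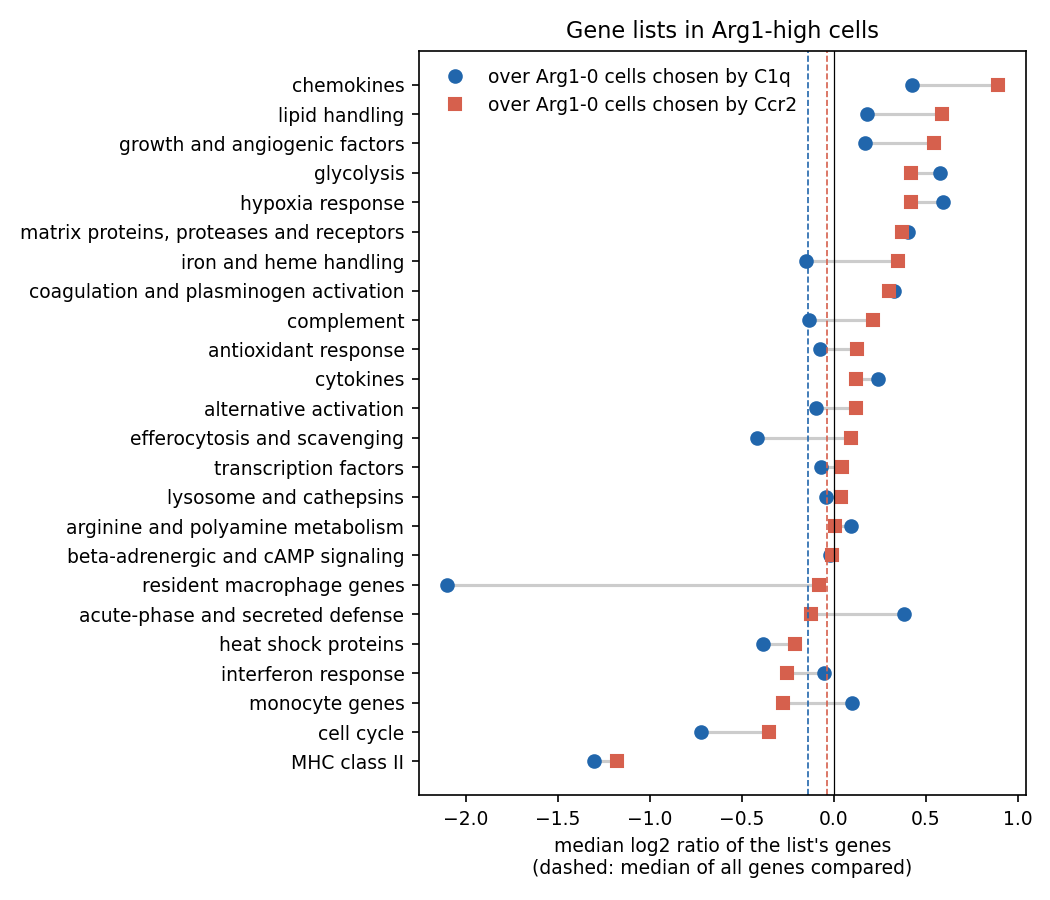
Median log2 ratio of each gene list (horizontal axis) in Arg1-high cells over C1q+ (blue circles) and over Ccr2+ Arg1-negative cells (red squares), with dashed lines at the median of all compared genes (−0.14 and −0.03). MHC class II lies at −1.31 and −1.18, whereas resident macrophage genes move from −2.10 to −0.08 with the choice of comparison cells.

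Several genes formed a gradient over the number of Arg1 UMIs per cell. In cells with 0, 1 to 4, 5 to 9, 10 to 24, and 25 or more, Spp1 was at 2698, 6709, 8821, 9612, and 13985 CPM, and Pdpn at 34.1, 97.8, 130, 169, and 243 CPM. Ccl2 was at 2959, 5364, 6122, 7127, and 7952 CPM and H2-Aa at 1549, 937, 723, 747, and 567 CPM. Cells with 1 to 4 Arg1 UMIs, which the rule leaves out, lay between the Arg1-negative and the Arg1-high cells in all 4 genes.

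The gradient was not seen in every label gene. Slpi was at 634, 629, 753, 699, and 626 CPM and Inhba at 61.7, 93, 125, 106, and 122 CPM. Ccr2 was at 767, 743, 756, 800, and 790 CPM and Il1b at 11766, 11700, 12224, 12123, and 11716 CPM, both nearly flat. Median depth went from 7636 to 13085 UMIs between the lowest and highest class. In cells of 5000 to 15000 UMIs only, an alternative added after the data were seen, Spp1 still went from 2864 to 15990 CPM, Pdpn from 36.2 to 319 CPM, and H2-Aa from 1435 to 128 CPM.

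**Figure D5:**
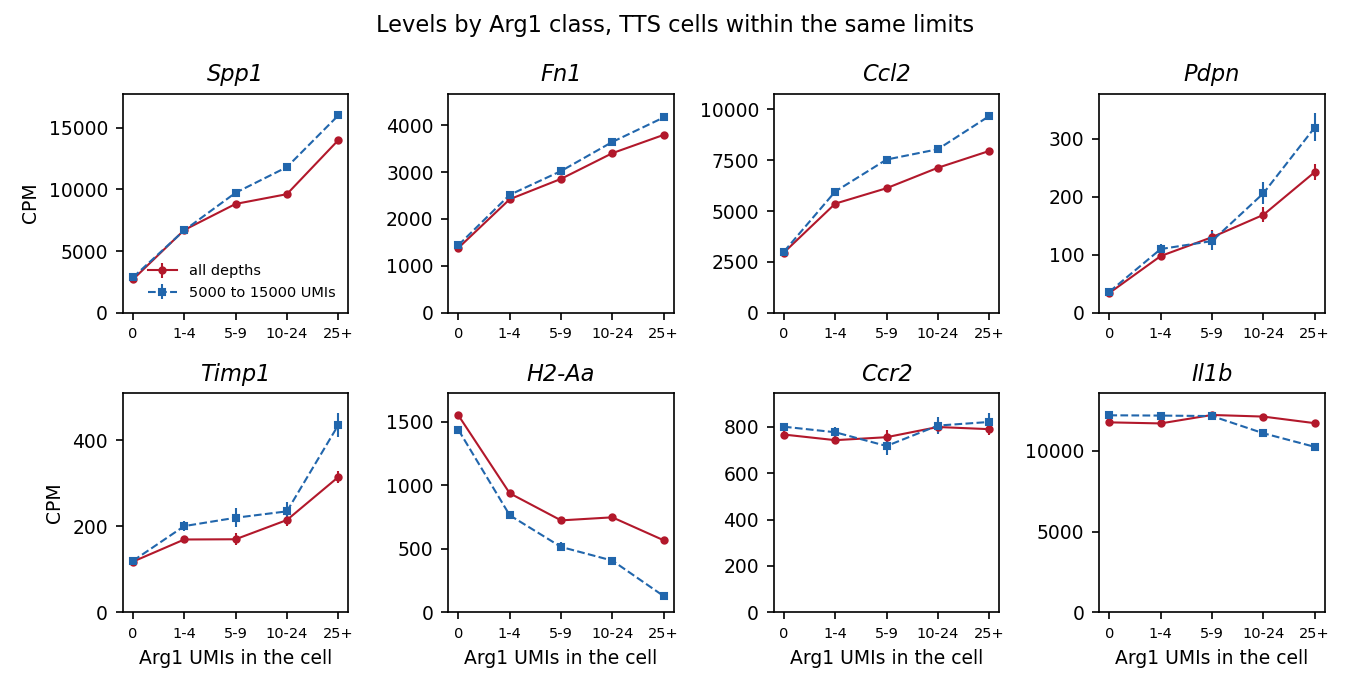
Summed CPM (vertical axes) of 8 genes by the number of Arg1 UMIs in the cell (horizontal axes) in ISO cells within the limits, at all depths (red) and at 5000 to 15000 UMIs (blue), with exact Poisson 95% intervals. Spp1, Fn1, Ccl2, Pdpn, and Timp1 are highest and H2-Aa is lowest in cells with 25 or more Arg1 UMIs, whereas Ccr2 is nearly flat.

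Cells on either side of the minimum of 5 Arg1 UMIs had like levels of Fn1 and Pdpn, and Spp1 was higher just outside it. The 191 cells with 3 or 4 Arg1 UMIs, just outside, and the 124 cells with 5 or 6, just inside, had 10085 and 7466 CPM of Spp1, 2727 and 2729 CPM of Fn1, 119 and 118 CPM of Pdpn, and 818 and 939 CPM of H2-Aa.

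Arg1-high cells with and without C1q differed in their level of several genes. The 422 cells with at least 4 C1q UMIs had 28.9 CPM of Lyve1 and 68 CPM of Cd163, and the 417 cells with none had 0.449 and 4.49 CPM. Spp1 was at 9780 and 12616 CPM, Inhba at 85.9 and 169 CPM, and Pdpn at 160 and 229 CPM in the same order, and Ccr2 was at 766 and 813 CPM. Median depth was 14019.5 UMIs in the first and 9125 UMIs in the second, and the part of depth in these differences was not tested.

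Markers of other cell types were present at low levels, and their part in the results was not tested. The 8 neutrophil markers summed to 222 CPM in Arg1-high, 173 in C1q+, 134 in Ccr2+, and 167 in Control cells, with Ly6g at 0 in the Arg1-high cells. Within the Arg1-high cells the neutrophil genes Retnlg and Mmp9 were at 24.3 and 23.1 CPM under 10000 UMIs and at 91.7 and 102 CPM at 20000 UMIs or more. T and NK markers summed to 24.9 CPM against 45 in C1q+ cells, B cell markers to 26.4 against 70 CPM, and cardiomyocyte markers to 47.3 against 112 CPM. Endothelial markers had median log2 ratios of 0.26 and 1.02 over 4 genes, with Cdh5 at 3.21 CPM. Fibroblast markers summed to 310 CPM in Arg1-high, 257 in C1q+, 261 in Ccr2+, and 207 in Control cells, of which Gsn, an actin-binding protein gene that macrophages also express, made up 307 CPM in Arg1-high cells. Platelet markers summed to 46.5, 49.4, 16.4, and 11.8 CPM, nearly all of it Ppbp, which was 1.53 log2 above Ccr2+ cells and −0.09 against C1q+ cells. Mast cell markers summed to 2.27, 1.97, 2.37, and 8.40 CPM. Among the markers of these cell types, the fibroblast genes Lum and Pdgfra, the platelet genes Gp9 and Gp1bb, the mast cell genes Mcpt4 and Tpsb2, and the red cell genes Hba-a1, Hba-a2, and Alas2 were at 0 in the Arg1-high cells.

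No doublet caller was run beyond the limits of the rule. Leaving out cells over 25000 UMIs or 5000 genes left 893 of 964 Arg1-high and 696 of 707 C1q+ cells. Of the named genes past 2-fold against C1q+ cells, all 102 that could be compared kept their direction, and 97 stayed past 2-fold. As most cells are the same as in the main comparison, this says little about doublets. Of 15 barcode sequences kept in both libraries, 3 belonged to Arg1-high cells.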

How the data were processed

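CD45+ heart cells of 1 Control and 1 TTS (ISO) library were profiled, with 3 hearts pooled and 15000 cells loaded in each. Per the labels and the methods, the authors processed reads with bcl2fastq 2.19.1.403, UMI-tools 1.0.0, STAR 2.7.3a, and featureCounts 1.6.4 of Subread on mm10. The annotation release and the strand setting are not given in the sources used here, and reads of overlapping genes cannot be told apart. The deposited values are UMI counts per gene and barcode, without normalization.

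Counts were read with Python 3.11.15, numpy 2.4.6, scipy 1.17.1, and pandas 2.3.3, and plotted with matplotlib 3.10.9. Arg1-high cells were taken by the rule in the text from barcodes above 500 and below 6000 genes whose mitochondrial share was under 25%. Their UMIs were summed and compared as CPM for genes with at least 20 UMIs over both groups, adding 0.5 UMI. Genes of the selection rule were left out of counts and medians. Summed counts have exact Poisson intervals, ratios have exact binomial intervals, and shares have exact Clopper-Pearson intervals, all at 95%. For detection, cells were thinned to 2000 UMIs. The ratio step was run on simulated sums with known changes. These sums were Poisson draws without spread between cells, and the choice of cells was not simulated.

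With 1 library per group, no p-value was computed. The members, the comparison cells, and the 35 gene lists were chosen with earlier results of these data known. Named genes are the list members and, among genes with at least 100 CPM in the higher group and 50 UMIs, the 25 with the highest and the 25 with the lowest ratio to C1q+ cells and the 15 each way to Ccr2+ cells. Promoters came from RefSeq (GRCm38.p6). Alternatives covered the selection limits, the comparison cells, depth, scaling, and the added UMI, and 3 were added after the data were seen.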

Additional observations from a re-analysis of the deposited data

How the results depend on the processing

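No paired analysis was possible because each group is 1 library. The share of Arg1-high cells in the ISO library was 17.7%. It was 21.2% with at least 3 Arg1 UMIs, 12.8% with at least 10, 13.3% with at least 2 after thinning, 14.6% with S100a8 and S100a9 under 0.1%, 23.3% without the limits on other lineages, and 25.6% of cells within those limits. The 147 genes at least 2-fold above C1q+ cells (1.27% of compared genes) became 64 (0.739%) with at least 100 UMIs and 74 (0.638%) with 5 UMIs added. After thinning they were 142 (1.69%), of which 53 were among the 147. The 816 genes below (7.04%) became 476 (3.88%) without the C1q minimum, 329 (2.73%) against Ccr2+ cells, and 538 (6.39%) after thinning. Of those 538 genes, 225 were among the 816. The genes below were 254 (2.93%) with at least 100 UMIs and 350 (3.29%) with both C1q and Ccr2 required. The MHC class II median of −1.31 was −1.09 without the C1q minimum, −1.18 against Ccr2+ cells, −1.39 after thinning, −1.42 as a mean over cells, −1.89 at 5000 to 15000 UMIs, −1.17 when centered on the median gene, −1.42 with both C1q and Ccr2 required, and −1.94 under 10000 UMIs. Of 103 named genes past 2-fold, 10 changed sign against Ccr2+ cells, with log2 ratios of 0.11 (Blvrb), 0.32 (Cd163), 0.50 (Cd36), 0.028 (Ctla2a), 0.012 (Folr2), 0.52 (Mt2), 0.95 (Pf4), 0.56 (Slc40a1), 0.10 (Trbc2), and 1.22 (Vsig4), and 33 stayed past 2-fold. With both C1q and Ccr2 required, 99 of 100 kept their direction, 50 stayed past 2-fold, and Vsig4 was at 0.62. Under the other alternatives, all of those genes that could be compared kept their direction. The cause of these moves was not tested. The minimum over both markers and the limits at 10000 UMIs and at 5000 to 15000 UMIs for the Arg1 classes were chosen after seeing the data. Rare genes are limited by depth: 1 UMI in the summed Arg1-high cells is well under 1 CPM, and single cells miss most transcripts.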
